A study of Homo sapiens with 8 samples.

Results

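The genes described here are the replication-dependent histone genes, taken as every gene of the deposited table whose symbol is H1-1 to H1-6 or carries the prefix H2AC, H2BC, H3C or H4C followed by a number. This naming rule used no measured value and gave 69 of the 19892 genes in the table: 6 for histone H1, 17 for H2A, 18 for H2B, 13 for H3 and 15 for H4. The cells were MDA-MB-231, a long-established human line of triple-negative breast cancer, given an siRNA against ADAR1 or a control siRNA. Each siRNA had 2 Ribo-seq libraries, made from RNA of 30 nt, and 2 libraries that the labels call Input, made from RNA of 40 to 60 nt, 8 libraries in all. ADAR1, encoded by ADAR, edits adenosine to inosine where RNA is double-stranded, and the series asks how it affects what cancer cells transcribe. No other treatment is named in the labels, and the sources used here give neither the siRNA sequences, nor the time after transfection, nor any ribonuclease. Nothing says that the 2 libraries of a group are from separate cultures. The p-values therefore speak only of the spread among these libraries, which may be technical.

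Replication-dependent histones supply the chromatin made in S phase. H2A, H2B, H3 and H4 form the nucleosome core, and H1 binds the linker DNA between nucleosomes. Their genes lie in clusters, have no introns in the coding sequence, and are known for mRNAs that end in a conserved stem-loop bound by SLBP in place of a poly(A) tail, although some of the genes are also known to make polyadenylated mRNAs. Replication-independent histones, such as H2A.Z and H3.3, are encoded elsewhere, as ordinary polyadenylated mRNAs made through the cell cycle.

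Input libraries held 15732757 to 17153716 estimated counts each, and Ribo-seq libraries 10492223 to 14875465. ADAR stood at 14.8 and 30.6 TPM in ADAR1 siRNA Input against 106.2 and 110.2 TPM in control Input, and at 1.55 and 8.41 TPM in ADAR1 siRNA Ribo-seq against 19.1 and 20.3 TPM in control Ribo-seq, so every knockdown library lay below its controls. TPM is a level scaled for length and library size. By edgeR the log2 fold change of ADAR was -2.26 ± 0.32 (SE) in Input (adjusted p = 0.0527) and -2.04 ± 0.47 in Ribo-seq (adjusted p = 0.0485). The 6 markers listed for MDA-MB-231, VIM and CD44 among them, summed to 7572 and 8109 TPM in ADAR1 siRNA Input and 7495 and 7466 TPM in control Input, while the leukocyte markers PTPRC and CD3E, the endothelial marker CDH5 and the luminal receptors ESR1 and PGR were at 0.377 TPM or lower in all 8 libraries. The 8 luminal markers, mostly keratins by level, summed to 1521 and 1578 TPM in ADAR1 siRNA Input against 1792 and 1792 TPM in control Input, and CD68, a marker of macrophages, stood at 183.3 and 178.8 TPM against 232.4 and 231.5 TPM. Of the luminal list ERBB2 had 29.5 and 32.4 TPM in ADAR1 siRNA Input against 31.1 and 35.5 TPM in control Input, and GATA3 reached 8.465 TPM. The leukocyte markers CD14 and LYZ reached 4.44 and 4.99 TPM, in control Ribo-seq. The 4 endothelial and 6 fibroblast markers summed to no more than 8.75 and 8.02 TPM in any library. In Ribo-seq the marker genes KRT8 and KRT19 fell (log2 -0.96 ± 0.21 and -0.99 ± 0.15) and CAV1 and PDGFRB rose (0.67 ± 0.14 and 1.22 ± 0.28; edgeR adjusted p of 0.0261 to 0.0485). The part of these markers in the histone results was not tested.

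Footprints on the histone genes were abundant and their Input fragments scarce. The 69 genes took 4.36% and 4.15% of all Ribo-seq counts with ADAR1 siRNA and 4.33% and 4.18% with control siRNA. In Input they took 0.0206% and 0.0226% of counts with ADAR1 siRNA and 0.0138% and 0.0147% with control siRNA. In each Ribo-seq library 42 of the 69 held over 1000 counts. In Input, 15 and 16 of them reached 10 counts in the ADAR1 siRNA libraries, against 11 and 10 in the controls.

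Along the chromosomes the genes fell into a high and a low class in Ribo-seq, with few between. The limits of 100 and 10 TPM were set after the values were seen. At or above 100 TPM in every Ribo-seq library were 42 genes, from 142.4 to 3388.6 TPM: 2 of H1, 12 of H2A, 11 of H2B, 8 of H3 and 9 of H4. Under 10 TPM in every library were 23 genes, none above 5.57 TPM, and 21 of these 23 had no count in any Input library. The other 4 were H2AC1, H2BC1, H2BC6 and H2AC8.

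The highest gene of each type was of similar size in both groups. H1-4, a linker histone, had 3358 and 3301 TPM in ADAR1 siRNA Ribo-seq against 3389 and 3089 TPM in control Ribo-seq. H3C2, a gene for core histone H3, had 3289 and 3214 TPM with ADAR1 siRNA against 3191 and 3148 TPM with control siRNA. H2BC4, a gene for H2B, had 2602 and 2663 TPM against 3034 and 2449 TPM in the controls. H2BC5, next among the H2B genes, had 2680 and 2831 TPM against 2519 and 2643 TPM. In TPM the groups overlapped for H1-4 and H2BC4, and for H3C2 and H2BC5 both knockdown libraries lay slightly above both controls. The H2A genes H2AC18 and H2AC19 shared values of 2458 and 2366 TPM with ADAR1 siRNA and 2543 and 2775 TPM with control siRNA. Here both knockdown libraries lay below both controls. Among all genes tested in Ribo-seq, by counts scaled to library size, both lay above for 30% and below for 26.2%. H4C2, one of the H4 genes, had 2197 and 2238 TPM against 2198 and 2244 TPM in the controls. In Input the same H4C2 had 0 counts in both ADAR1 siRNA libraries against 0 and 1 in the controls, and H3C2 had 2 and 4 against 3 and 0.

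High and low genes were not scattered evenly (genome coordinates are RefSeq's for GRCh38.p14). All 11 genes of the chromosome 1 cluster at 149782689 to 149887965 were high. On chromosome 6, between 26017032 and 26285534, 14 of 32 were high, and 17 had a median under 10 TPM over the 4 Ribo-seq libraries, among them 15 successive histone genes from H4C4 to H2BC10. That run covers 84703 nt (26188710 to 26273412), held no Input count in any library, and lies between H2BC6 (104.5 TPM on average in ADAR1 siRNA Ribo-seq, 123.5 TPM in control Ribo-seq) and H4C8 (2256 and 2206 TPM). Of its 15 genes, 14 stayed under 10 TPM in every Ribo-seq library. The exception was H2AC8, with 11 and 6 counts in the ADAR1 siRNA libraries but 829 and 4 counts in the controls, so its level in the controls rests on 1 library. A second run, of 4 genes from H2AC16 to H4C13, covers 8218 nt (27865317 to 27873534) between high neighbours. H1-6, known as a testis-specific linker histone, was low, at 1.31 and 0.98 TPM with ADAR1 siRNA and 1.82 and 1.73 TPM with control siRNA. H2AC1 and H2BC1, which encode the testis forms of H2A and H2B, lay between the classes, H2BC1 at 23.6 and 20.0 TPM against 37.0 and 34.2 TPM in the controls.

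**Figure D1:**
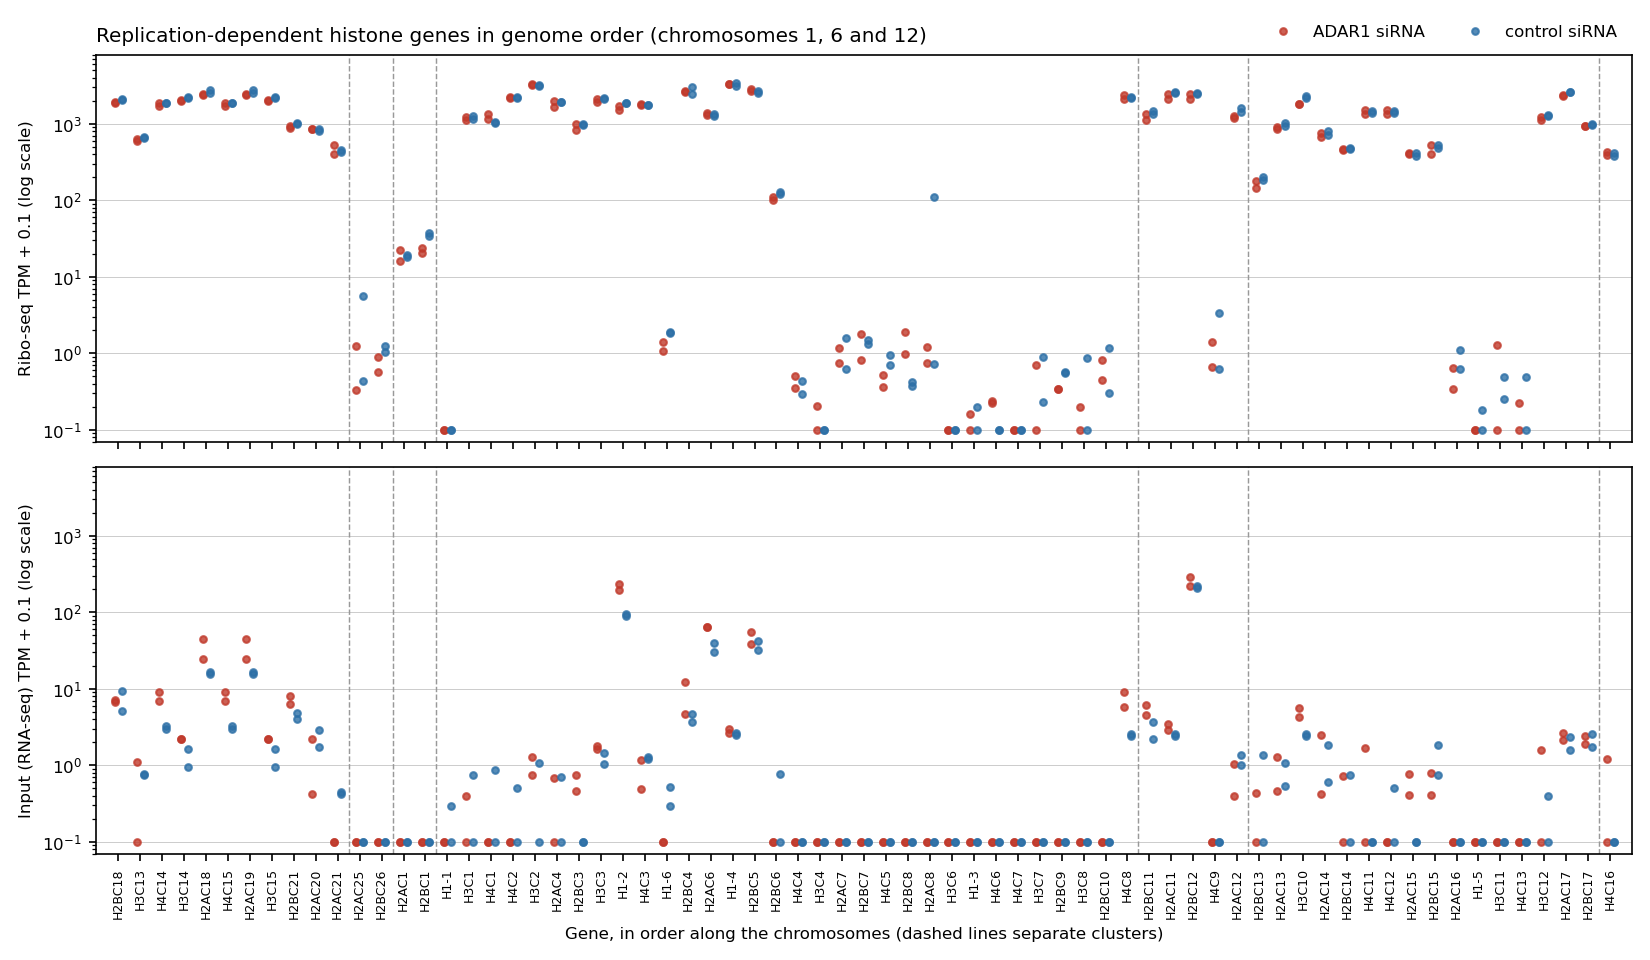
Each of the 69 genes is placed in order along chromosomes 1, 6 and 12, with TPM + 0.1 on a log axis in Ribo-seq (top) and Input (bottom), 1 point per library. In Ribo-seq the points of 42 genes sit above 100 TPM and those of 23 sit below 10 TPM, among them 14 of the 15 successive genes from H4C4 to H2BC10, where only H2AC8 has a point above 100 TPM, in 1 control library; most genes are near or at 0 in Input.

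To set genes of the same type but opposite level side by side, the 130 bases before the annotated start are given for H1-2, the gene on which the RNA result below turns, and for 3 pairs of high and low genes. The genes were chosen after their values were seen, and the sequences are RefSeq's for GRCh38.p14. Capitals mark matches, on either strand, to the H1 box AAACACA, the CCAAT box CCAAT, the octamer ATTTGCAT and the TATA box TATAAA, motifs known from histone promoters. The H4 pair holds none of them, and there capitals mark its longest shared run.
H1-2 (chr6:26056471-26056600, minus strand, high): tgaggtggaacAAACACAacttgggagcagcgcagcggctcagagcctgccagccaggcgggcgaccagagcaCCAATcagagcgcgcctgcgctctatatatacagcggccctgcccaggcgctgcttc
H1-4 (chr6:26156199-26156328, plus strand, high): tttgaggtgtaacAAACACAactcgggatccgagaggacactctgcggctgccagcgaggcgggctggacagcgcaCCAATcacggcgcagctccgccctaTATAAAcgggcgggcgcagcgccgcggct
H1-3 (chr6:26234988-26235117, minus strand, low): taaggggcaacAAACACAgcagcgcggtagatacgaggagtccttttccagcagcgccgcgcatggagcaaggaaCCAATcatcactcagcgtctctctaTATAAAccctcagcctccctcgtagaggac
H2BC11 (chr6:27132796-27132925, minus strand, high): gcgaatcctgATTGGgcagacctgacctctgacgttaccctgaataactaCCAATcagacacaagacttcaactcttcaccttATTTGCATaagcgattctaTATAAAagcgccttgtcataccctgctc
H2BC10 (chr6:26272801-26272930, plus strand, low): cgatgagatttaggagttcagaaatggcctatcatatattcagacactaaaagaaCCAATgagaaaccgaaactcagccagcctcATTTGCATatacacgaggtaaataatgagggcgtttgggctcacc
H4C8 (chr6:26285535-26285664, minus strand, high): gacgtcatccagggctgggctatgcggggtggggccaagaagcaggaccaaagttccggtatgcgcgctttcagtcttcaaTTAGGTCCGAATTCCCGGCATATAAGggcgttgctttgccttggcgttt
H4C5 (chr6:26204480-26204609, plus strand, low): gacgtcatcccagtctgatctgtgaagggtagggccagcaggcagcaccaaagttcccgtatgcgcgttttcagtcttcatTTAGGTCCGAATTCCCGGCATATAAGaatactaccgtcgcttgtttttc
H4C8 and H4C5 had the same base at 100 of these 130 positions (76.9%), with a shared run of 26 bases, yet H4C8 had 2382 and 2131 TPM in ADAR1 siRNA Ribo-seq and 2192 and 2219 TPM in control Ribo-seq, while H4C5 had 0.26 and 0.42 TPM with ADAR1 siRNA and 0.85 and 0.61 TPM with control siRNA. H1-4 and H1-3, which both hold the H1 box, CCAAT and TATAAA, matched at 39 positions (30%), and H2BC11 and H2BC10 at 33 (25.4%). Matches were counted position by position without gaps. Motifs that a pair shares but that sit a few bases apart count as mismatches, so a low share does not mean unlike sequence. H1-3 had 1 footprint count in 1 library of each group.

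Over 250 bases before the start, on both strands, CCAAT stood in 84.4% of the 64 histone promoters found in the RefSeq table and in 33% of all 27305 promoters. By type, every promoter found for H1, H2A, H2B and H3 held it, against 3 of 13 for H4. The octamer stood in 68.8% of H2A and 77.8% of H2B promoters and 1.66% of all promoters, and the H1 box in 6 of 6 H1 promoters and 4.95% of all. TATAAA stood in 65.6% of the histone promoters, against 11.1% of all: in 9 of the 23 whose gene had a median under 10 TPM in Ribo-seq and in 33 of the other 41. CCAAT differed less by level, at 87% of the low and 82.9% of the other promoters. These are counts of letters, not of bound sites, and divergent pairs share sequence: 11 pairs of H2A and H2B genes start 193 to 247 nt apart in opposite directions, so their windows overlap.

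Counts of identical or near-identical copies cannot be assigned to 1 gene with certainty. H2AC18 and H2AC19, H3C14 and H3C15, and H4C14 and H4C15 had the same count in every library of both assays, and H4C11 and H4C12 in every Ribo-seq library. Between 55 and 57 of the 69 genes had a count that was not a whole number in a Ribo-seq library, against 3 to 8 in an Input library. The sources used here do not say how reads were shared between copies, so sums over a type are given beside single genes. H4C9 lies inside the annotated span of H2BC12, and reads of such overlapping genes are uncertain in the same way.

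Relative to Input, footprints were frequent on these genes. In control cells all 47 genes tested were higher in Ribo-seq than in Input (edgeR, adjusted p of 0.000257 or lower), against 38.5% of all 12524 genes tested as higher and 80.5% in either direction. At an unadjusted p under 0.05 all 47 passed too, against 81.4% of all genes, and all 47 ratios lay above 0, against 47.7%. These counts are a description: 7 of the 47 had no Input count and 11 had 1 to 3 over both controls, and genes so low in Input could pass the count filter only by being high in Ribo-seq. The median log2 ratio over the 47 was 12.27 as fitted, and 12.03 when the 7 genes with no Input count in either control were held at 3 counts over the group, against -0.08 over all genes. Among the 15 genes with enough Input counts for the RNA test, H2BC12 was lowest (log2 5.01 ± 0.08 SE) and H1-4 highest (12.67 ± 0.14), with H1-2 at 6.72 ± 0.08; these 3 had 10 or more Input counts in both controls. Of 10 replication-independent histones tested, 9 were higher in Ribo-seq and CENPA, the centromeric H3, was lower (log2 -0.39 ± 0.13, adjusted p = 0.0199), with a median of 1.67.

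Summed over the genes of a type, the types differed in this ratio. The share of Ribo-seq counts divided by the share of Input counts, library by library, was 3959 and 3546 for H3 with ADAR1 siRNA against 5504 and 7989 with control siRNA. For H4 it was 1927 and 1830 against 4527 and 4023 in the controls. It was 323.8 and 402.8 against 613.4 and 753.8 for H2A. It was 77.8 and 82.7 against 187.1 and 163.5 for H1, and 97.3 and 69.9 against 109 and 90.9 for H2B. In all libraries H3 and H4 stood above H2A, and H2A above H1 and H2B, and the H2B values of the groups overlapped. These sums follow the few genes with most Input counts, and those of H3 and H4 rest on 20.1 to 69 Input counts per library. Over single genes tested in the controls, the median log2 ratio as fitted was 6.72 for H1, 12.3 for H2A, 10.89 for H2B, 13.19 for H3 and 13.5 for H4. These medians include genes with no Input count in either control: H2AC1, H2AC15, H2BC1, H2BC3, H2BC7, H4C11 and H4C16. The order of H3 and H4 depends on how such genes are treated. Single H1 genes ran from 4.75 to 12.67.

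A few genes held nearly all the Input counts. H2BC12 took 44.9% of the Input counts of the 69 genes over the 4 libraries, H1-2 25.6%, H2BC5 7.74% and H2AC6 6.14%, and with H2AC18, H2AC19 and H2BC21 these genes made up 93.4%. Of the 8 genes annotated over more than 1000 nt, as H2BC12 and H2BC5 are, 6 had enough Input counts to be tested, against 9 of the 61 shorter ones. The deposited values also used unlike lengths in the assays: the count per TPM, relative to H2BC11 in the same library, was 1 for H2BC21 in Ribo-seq and 4.62 in Input, and H2BC12 stood at 1.74 in Input.

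The authors' deposited translational efficiency, the Ribo-seq TPM divided by the Input TPM, was also higher at the median for these genes. Its median over histone genes with a value was 415.3 and 749.9 with ADAR1 siRNA (33 and 35 genes) and 632.2 and 839.4 with control siRNA (32 and 38 genes), while over all genes it was 0.326 and 0.398 against 0.374 and 0.395. It was 2.21 and 2.33 against 2.37 and 2.24 for 10 replication-independent histones, and 1.69 and 1.62 against 1.68 and 1.60 for other genes of similar length, 0.8 to 1.1 times that of H2BC11. Of the 20 genes with the highest value, 19 and 19 in the ADAR1 siRNA libraries and 20 and 20 in the controls were replication-dependent histones. The lowest value of any replication-dependent histone, 4.27 for H1-6 in a control library with 2 Input counts, was still above the median of every other set. The ranges overlapped, however. Replication-independent histones reached 14.22 and 12.55 with ADAR1 siRNA and 10.05 and 10.17 with control siRNA. With ADAR1 siRNA, H1-2 (6.55 and 8.60) and H2BC12 (9.48 and 8.43) lay below that. Only 27 of the 69 had a value in all 4 columns and 25 in none, since a gene at 0 in Input has no ratio. Why Input holds so few of these transcripts was not tested.

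**Figure D2:**
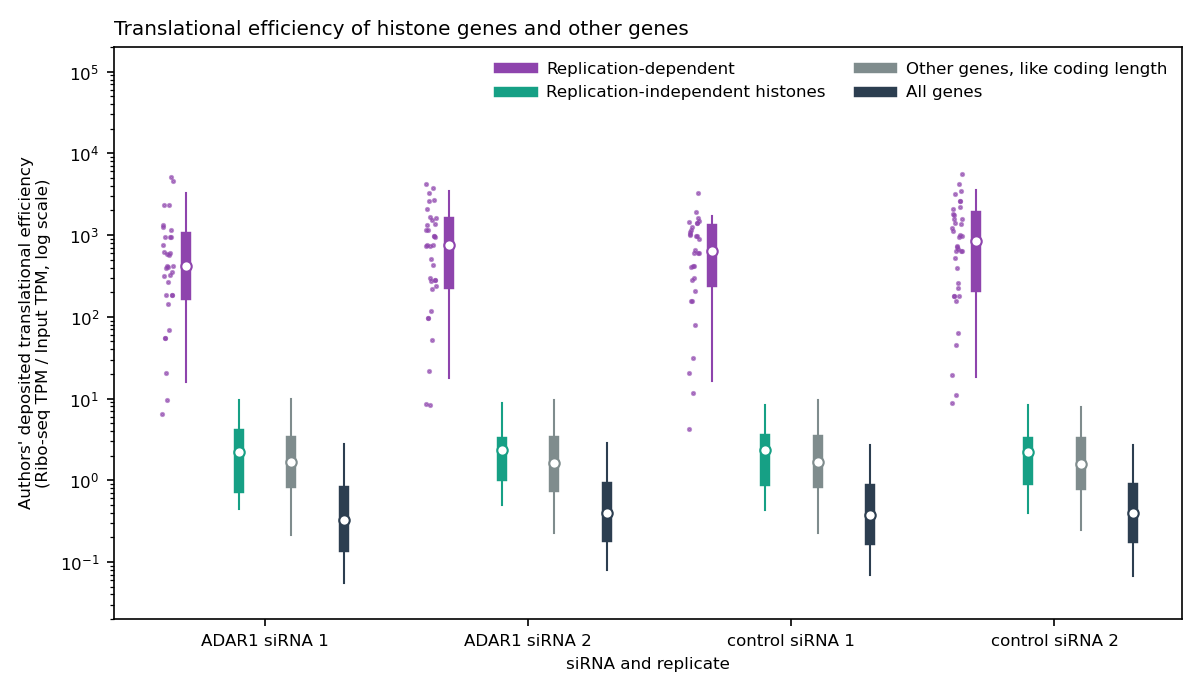
Translational efficiency as the authors deposited it, on a log axis, for ADAR1 siRNA replicates 1 and 2 and control siRNA replicates 1 and 2; small points are single replication-dependent histone genes, open circles medians, thick bars the 25th to 75th percentiles of each set and thin lines its 5th to 95th percentiles. The medians of the replication-dependent set lie between 415.3 and 839.4 in the 4 libraries, and those of the 3 other sets between 0.326 and 2.37.

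RNA levels after ADAR1 siRNA were tested for 15 of the 69 genes, the others having too few Input counts. By edgeR H1-2 rose and no other of the 15 passed, while DESeq2 called H1-2 and H2AC6. DESeq2 gave no adjusted p for H1-4, H2BC4, H2BC11, H2BC18, H2BC21, H3C10, H4C8, H4C14 and H4C15. It could therefore not call these genes. Among all genes DESeq2 called 436 in either direction. H1-2, a linker histone (NCBI gene 3006, GRCh38.p14 chromosome 6, 26055740 to 26056470, minus strand), had 1106 and 1024 counts in ADAR1 siRNA Input against 430 and 482 counts in control Input. This is 214.4 ± 24.1 TPM with ADAR1 siRNA and 92.7 ± 2.81 TPM with control siRNA (mean ± SD, n = 2 each), with no overlap. Its log2 fold change was 1.19 ± 0.09 (edgeR, adjusted p = 0.0346), or 2.28-fold. Among all 12644 genes tested 0.253% were called, 0.0791% as higher. The call was lost without either control library (edgeR adjusted p = 0.136 and 0.201), with log2 fold changes of 1.16 and 1.22. H1-4, the other H1 gene tested, had 13 and 16 counts against 12 and 14 in the controls (log2 0.12 ± 0.41).

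The H2A genes tested stood above the controls without passing by edgeR. H2AC6 had 227 and 246 counts with ADAR1 siRNA against 142 and 115 with control siRNA, and the groups did not overlap (log2 0.84 ± 0.18, edgeR adjusted p = 0.0765, DESeq2 adjusted p = 0.0353). H2AC18 and H2AC19, which share 1 set of counts, had 156.5 and 93 against 56.5 and 57.5 (log2 1.1 ± 0.30, edgeR adjusted p = 0.102), also without overlap. Leaving out replicate 1 of ADAR1 siRNA Input gave them a log2 fold change of 0.65, and leaving out replicate 2 gave 1.44.

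Of the 6 H2B genes tested, 5 lay above 0 and none passed. H2BC12 had 1199 and 1731 counts with ADAR1 siRNA against 1110 and 1298 with control siRNA, which overlap once scaled to library size (log2 0.25 ± 0.16). H2BC5 had 206 and 317 counts against 160 and 237 (0.37 ± 0.24), an overlap again. H2BC21 stood at 90 and 124.5 against 69 and 61 (0.68 ± 0.24, edgeR adjusted p = 0.151). H2BC4 had 13 and 38 against 13 and 11 (1.04 ± 0.58), where only 1 knockdown library was clearly high. Without that library, ADAR1 siRNA Input replicate 2, the log2 fold changes of H2BC4 and H2BC5 were 0.102 and 0.0445. H2BC18 was lowest of all, at 25.1 and 23.5 against 16.3 and 31.6 (-0.03 ± 0.41).

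The H3 and H4 genes tested had few counts. H3C10 had 17 and 14 counts with ADAR1 siRNA against 7 and 8 with control siRNA (log2 1.00 ± 0.45). H4C8 had 14 and 24 against 6 and 6 (1.61 ± 0.50, edgeR adjusted p = 0.127), and H4C14 and H4C15 shared 23.5 and 19 against 8 and 8 (1.38 ± 0.43, edgeR adjusted p = 0.124). These 4 genes and H2BC11 (19 and 15 against 11 and 7) had fewer than 10 counts in a control library and could pass the count filter only through the knockdown libraries, so genes this low were tested only where the knockdown libraries were higher. Of the 10 genes with 10 or more counts in both controls, 5 had both ADAR1 siRNA libraries above both controls after scaling, against 28.6% of all genes tested. H2AC18 and H2AC19, both among these 5, share their counts. None of the 10 had both below, against 29.6%, and the log2 fold changes of the 10 ran from -0.03 to 1.19. As a description of the 15 tested genes and not of all 69, 14 lay above 0, against 50.6% of all genes tested, with a median of 1.00 against 0.00, and 8 had an unadjusted p under 0.05, against 25.3%. The 15 include the 5 genes that entered only through the knockdown libraries, and they hold 13 distinct sets of counts. Without the count filter 27 of 45 genes lay above 0, with a median of 0.28.

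**Figure D3:**
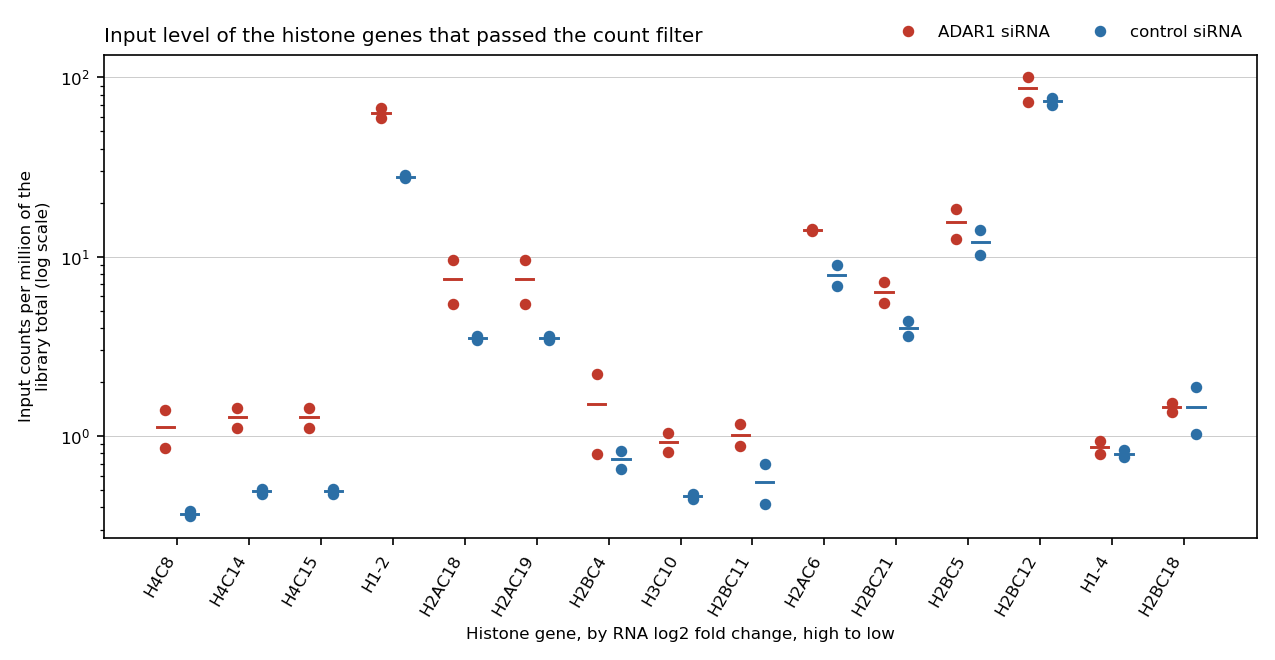
Input counts scaled to the library total (CPM), on a log axis, for the 15 genes with enough Input counts to be tested, ordered by log2 fold change from high (left) to low (right), with 1 point per library and a bar at the group mean. For H1-2 both ADAR1 siRNA libraries sit above both controls at more than 20 CPM, whereas the H4 genes at the left lie far lower, and H2BC12 and H2BC18 overlap between the groups.

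Sums over all genes of a type, tested or not, do not depend on the filter or on how reads were split among the copies of that type. Reads shared with histone genes outside the set could still move them, since H2AX, H2AJ and H3-3A also had Ribo-seq counts that were not whole numbers. Input sums, in CPM (counts scaled to library size by TMM), were 68.0 and 61.3 for H1 with ADAR1 siRNA against 28.2 and 29.4 with control siRNA, a ratio of means of 2.24. H1-2 holds nearly all of these H1 counts. For H4 they were 3.95 and 4.07 against 1.59 and 1.72 (ratio 2.43), from only 65 and 69 counts against 25 and 29. For H2A they were 35.0 and 27.2 against 18.5 and 15.2 (ratio 1.85), and for H3 2.49 and 2.59 against 1.78 and 1.19 (ratio 1.72), from 41 and 44 counts against 28 and 20.1. The groups did not overlap for these types. For H2B they did, with 95 and 133.3 against 88.1 and 98.5 (ratio 1.22), and without ADAR1 siRNA Input replicate 2 the log2 difference of H2B was 0.0256 in place of 0.29. The values are given without a test. In bulk RNA a change in the share of cells in S phase and a change in histone RNA per cell cannot be told apart.

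Summed footprints differed little by type. In Ribo-seq the sums were 5461 and 4948 CPM for H1 with ADAR1 siRNA against 5247 and 4810 with control siRNA, a ratio of 1.03. The ratios were 0.986 for H2A, 1.01 for H2B, 0.998 for H3 and 1.08 for H4, and 1.01 over all 69 genes. For H4 alone the groups did not overlap, with 7856 and 7269 against 7131 and 6905.

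**Figure D4:**
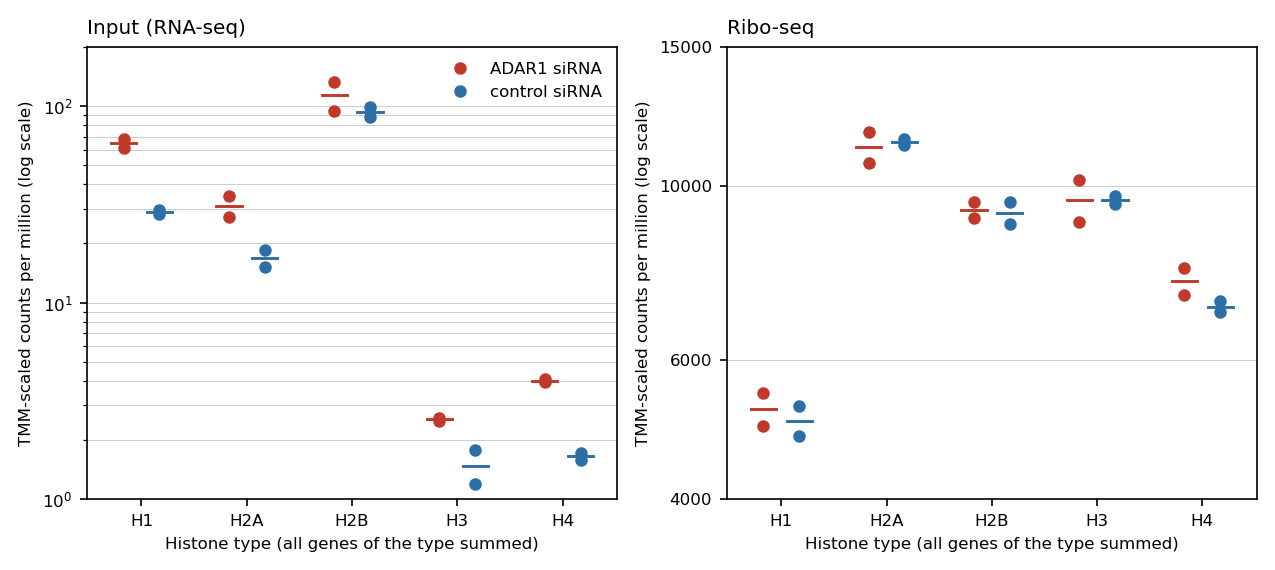
TMM-scaled CPM summed over all genes of each histone type, on log axes, in Input (left) and Ribo-seq (right), with 1 point per library and a bar at the group mean. In Input the ADAR1 siRNA points of H1, H2A, H3 and H4 lie above the control points, while in Ribo-seq the points of the groups overlap for every type but H4, whose ratio is 1.08.

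Gene by gene, 47 of the 69 were tested in Ribo-seq and none passed at the adjusted threshold by edgeR or by DESeq2, against 3.54% of all 12000 genes tested by edgeR, 1.88% as higher and 1.67% as lower. By edgeR 2 of the 47 had an unadjusted p under 0.05, against 24% of all genes. These were H4C1, an H4 gene, and H2BC1. H4C1 had 9108 and 9887 counts with ADAR1 siRNA against 6180 and 5360 with control siRNA (log2 0.34 ± 0.13, edgeR adjusted p = 0.150). H2BC1 had 229 and 181 counts against 271 and 213 (-0.61 ± 0.20, edgeR adjusted p = 0.109), and the control libraries were the shallower ones. The 47 log2 fold changes ran from -0.61 to 0.34 with a median of 0.01, against 0.05 over all genes, and 25 lay above 0, against 54.4% of all genes. That number depended on the scaling, with 36 of the 47 above 0 under upper-quartile scaling and 20 under DESeq2. Both ADAR1 siRNA libraries stood above both controls for 9 genes and below them for 8, against 30% and 26.2% of all genes.

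After H4C1 the highest values were small. H2BC5 had a log2 fold change of 0.19 ± 0.13 and H2AC15 of 0.15 ± 0.15 in Ribo-seq. H3C10 stood at -0.22 ± 0.13, with 1798 and 1792 TPM against 2202 and 2274 TPM in the controls. H1-6, with 20 and 14 counts against 21 and 17, stood at -0.53 ± 0.48. By type, all 9 H4 genes tested lay above 0 (0.04 to 0.34), while 4 of 14 H2B, 7 of 13 H2A, 4 of 8 H3 and 1 of 3 H1 genes did. The 9 H4 genes are not independent, since H4C11 and H4C12, and H4C14 and H4C15, share their counts.

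H1-2, whose RNA rose, did not pass in Ribo-seq. It had 23810 and 24860 footprint counts with ADAR1 siRNA against 22130 and 18714 with control siRNA, and 1517 and 1697 TPM against 1867 and 1857 TPM. Its Ribo-seq log2 fold change was -0.12 ± 0.13 (edgeR adjusted p = 0.598). Tested as the interaction of assay and siRNA over all 8 libraries, the translational efficiency of H1-2 fell by 1.29 ± 0.16 on the log2 scale (edgeR adjusted p = 0.0447). In the authors' deposited table it was 6.55 and 8.60 with ADAR1 siRNA against 20.6 and 19.6 with control siRNA. This call was lost in 6 of the 8 fits that left out a library, with log2 changes of -1.24 to -1.42 and edgeR adjusted p-values of 0.0556 to 0.333.

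H1-2 was the only call among 51 histone genes tested for translational efficiency, against 0.0463% of all 12953 genes called, 0.0154% as higher and 0.0309% as lower. By DESeq2 8 of the 51 were lower: H1-2, H2AC6, H2AC18, H2AC19, H2BC21, H4C8, H4C14 and H4C15. DESeq2 called 967 of all genes here in either direction. H2AC18 and H2AC19 share their counts, as do H4C14 and H4C15. The 15 genes also tested in RNA ran from -1.44 to 0.04, but 5 of them (H2BC11, H3C10, H4C8, H4C14 and H4C15) entered the RNA test only through higher knockdown Input, which lowers this ratio. The other 10 ran from -1.29 for H1-2 to 0.04 for H1-4, and 57.3% of all genes tested lay above 0. An unadjusted p under 0.05 was found for 11 of the 51, against 22.7% of all genes. After H1-2, the lowest adjusted p was that of H4C14 and H4C15 (log2 -1.31 ± 0.32, edgeR adjusted p = 0.0602). The other 36 had at most 12 Input counts in a library, and for 19 of the 51 both Input groups held 3 counts or fewer, too few for a ratio.

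**Figure D5:**
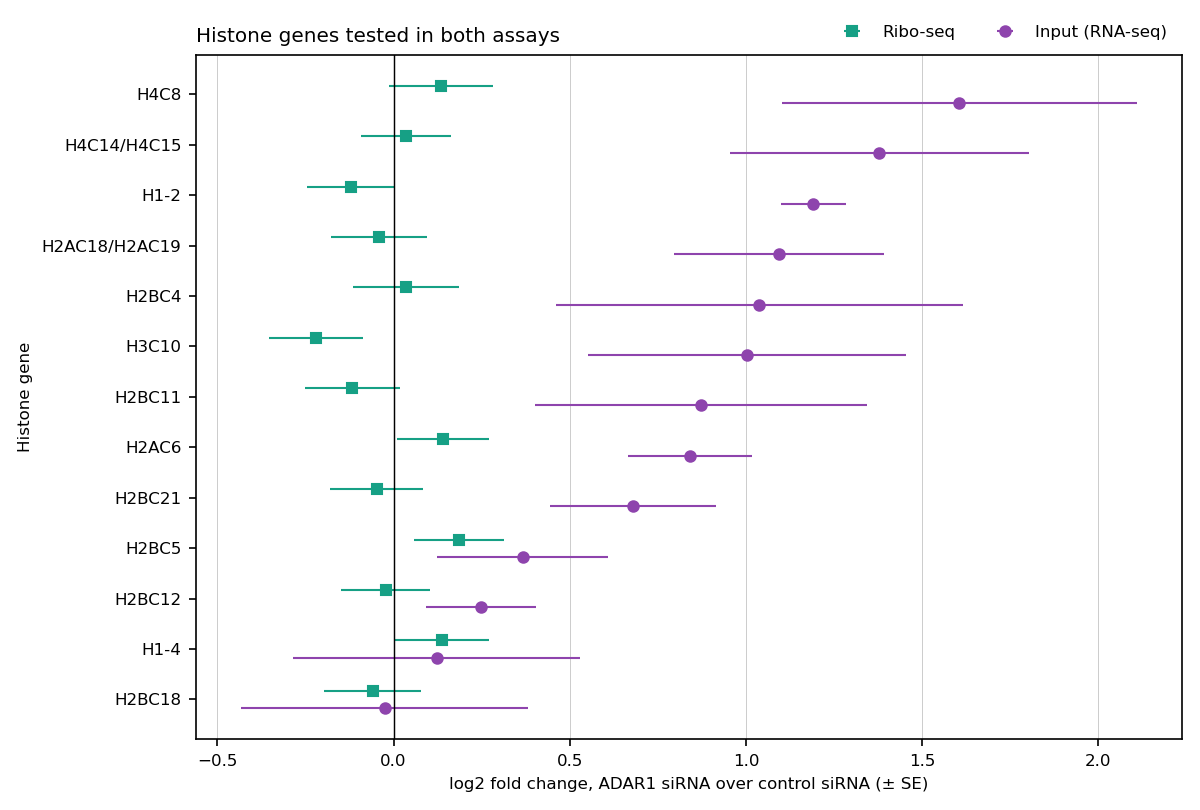
Log2 fold change of ADAR1 siRNA over control siRNA with its standard error from edgeR, in Ribo-seq (squares) and Input (circles), for the genes tested in both; genes that share 1 set of counts are drawn once, and genes are ordered by the Input value from top to bottom. Ribo-seq values lie between -0.22 and 0.19, whereas Input values run from -0.03 to 1.61, with H1-2 at 1.19 in Input and -0.12 in Ribo-seq.

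Histones outside the replication-dependent set had no call by edgeR. Of 12 such replication-independent genes measured, 10 were tested, with 0 called by edgeR in RNA, Ribo-seq or translational efficiency, 4, 1 and 2 with an unadjusted p under 0.05, and 1 called by DESeq2 in each. DESeq2 called 436, 978 and 967 of all genes in these comparisons. Their median RNA log2 fold change was -0.04. H2AZ1, which encodes H2A.Z, had 1549 and 1694 TPM in ADAR1 siRNA Ribo-seq against 1840 and 1790 TPM in control Ribo-seq, and 759.5 and 831.2 TPM in ADAR1 siRNA Input against 745.9 and 816.9 TPM in control Input. H2AZ2, its paralogue, had 1108 and 1202 TPM against 1564 and 1484 TPM in Ribo-seq (log2 -0.30 ± 0.14).

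No gene of the lists for making, processing or using histone mRNA passed in RNA by edgeR. Of 18 genes for histone transcription and 3′-end processing, 0 passed in RNA (edgeR, with 5 at an unadjusted p under 0.05, against 25.3% of all genes, and 0 by DESeq2). In Ribo-seq 1 fell by edgeR, against 1.67% of all genes, and 5 were lower by DESeq2, which called 978 of all genes in either direction. The edgeR call was CPSF3, the nuclease that cuts the 3′ end (log2 -0.86 ± 0.16, adjusted p = 0.0349). SLBP, which binds the stem-loop, stood at 0.01 ± 0.07 in RNA and -0.14 ± 0.15 in Ribo-seq, and NCBP2, a cap-binding subunit, at 0.15 ± 0.07 and 0.17 ± 0.14. Of 20 histone chaperones 1 fell in Ribo-seq by edgeR and 2 were lower by DESeq2. The edgeR call was NPM1 (-0.66 ± 0.15, edgeR adjusted p = 0.0460), and NAP1L1 stood at -0.23 ± 0.15. In RNA 0 of the 20 passed (edgeR, with 5 at an unadjusted p under 0.05, and 1 higher by DESeq2).

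Some genes of S phase and DNA replication fell in Ribo-seq. By DESeq2 11 of 30 such genes were lower, where DESeq2 called 978 of all genes in either direction. By edgeR 6 were lower, against 1.67% of all genes: MCM2, MCM4 and MCM5 of the replicative helicase, RRM1 and RRM2 of ribonucleotide reductase, and CDC6, which loads the helicase. MCM2 had 6.43 and 12.4 TPM with ADAR1 siRNA against 16.9 and 26.7 TPM with control siRNA (log2 -1.14 ± 0.27, edgeR adjusted p = 0.0490). In RNA 0 of the 30 passed (edgeR, with 5 at an unadjusted p under 0.05, and 0 by DESeq2). The log2 fold changes of the 6 ran from -1.14 to -0.68. PCNA, the sliding clamp, stood at -0.10 ± 0.14 and TYMS, which makes thymidylate, at -0.12 ± 0.14 in Ribo-seq. For translational efficiency edgeR called 0 in the lists for processing, chaperones and S phase, where the unadjusted p was under 0.05 for 6, 6 and 15 genes, while DESeq2 called 3, 3 and 10. Of these DESeq2 calls 0, 1 and 1 were higher and 3, 2 and 9 lower. Among all genes DESeq2 called 967 for translational efficiency. The part of the S-phase changes in the histone results was not tested.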

How the data were processed

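RNA-seq (Input) and Ribo-seq libraries were grouped by their titles, 2 per siRNA and assay. Per the labels' protocols, lysate passed through a sucrose gradient, RNA of 30 nt or 40 to 60 nt was taken from gels, and libraries were made by ligating adapters to both ends and PCR; no molecular identifiers are mentioned. GRCh38 (hg38), STAR, Bowtie2, featureCounts and cutadapt are named in the submitters' processing notes; the sources used here give no versions, roles, strand or multi-mapping settings. The authors deposited estimated counts per gene without normalization, of which 87.0% to 90.1% per library were whole numbers within 1e-06. The authors also deposited TPM. The deposited translational efficiency is a ratio of Ribo-seq TPM to Input TPM, equal to it in 100% of values. No column of another sample was present.

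Gene numbers were matched to symbols (19669 of 19892). Counts were rounded, scaled by TMM, filtered with filterByExpr and tested with edgeR 4.0.16 quasi-likelihood (R 4.3.3; DESeq2 1.42.0 as alternative), two-sided, Benjamini-Hochberg over all genes, 0.05. RNA and Ribo-seq were fitted in 4 libraries each, translational efficiency as the interaction over 8, without a replicate block. A log2 fold change divided by the square root of its F gave the SE. Replicates differed by more than sampling noise (mean chi-square per gene 16.9 and 1.90 for the ADAR1 siRNA and control siRNA Input pairs, 32.7 and 7.05 for Ribo-seq), so none was merged. Counting error and floors of 3 counts cover counting only.

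The histone genes, lists and rules were chosen with earlier results of these data known. Named are the genes called in any test, the 2 of each type highest in control Ribo-seq, the 3 highest and 3 lowest fold changes in RNA and Ribo-seq, and from each list its called genes and its 2 highest; other genes, such as H2AC6, H2BC21, H2BC11 and those of the promoter pairs, were named after their values were seen. Alternatives were DESeq2, upper-quartile scaling, other count filters, a replicate block and leaving out each library. Clusters are genes within 200000 bases of a neighbour.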

Additional observations from a re-analysis of the deposited data

Results flagged for a closer look

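With all libraries in the fit, the siRNA difference of H1-2, a linker histone gene, was not the same in the assays, by the test of the interaction itself. Its log2 fold change was 1.19 ± 0.09 in RNA and -0.12 ± 0.13 in Ribo-seq, and the interaction was -1.29 ± 0.16 (edgeR adjusted p = 0.0447). Both ADAR1 siRNA Input libraries lay above both controls. The interaction call was lost in most fits that left out a library, and the RNA call was lost without either control library.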

How the results depend on the processing

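Fits with 1 library left in a group take the spread from the other group, as if the lone library varied alike. In RNA DESeq2 gave no adjusted p for the genes named so above, among them H2BC4 and H2BC21, and could not call them. The number of histone genes called in RNA, 1 with all libraries, was 2 with DESeq2 (H1-2 and H2AC6) and 0 to 9 when a library was left out: 0 without either control (edgeR, 4 at an unadjusted p under 0.05 in each case), 9 when ADAR1 siRNA Input replicate 1 was left out and 6 when it was replicate 2, where 4013 and 5325 of all genes were called. The RNA median of 1.00 was 0.28 without the count filter, over 45 genes, or 0.43 over the 32 with more than 3 counts in a group (1 held at 3 counts), and 0.87 with identical copies counted once, an alternative chosen after seeing the data. In Ribo-seq the count of 0 was 3 without the filter (H2AC8, H2AC25 and H2BC1, all lower) and 0 to 3 with a library left out, 3 without ADAR1 siRNA Ribo-seq replicate 1. For translational efficiency the count of 1 was 8 with DESeq2, 5 without the filter and 0 to 4 with a library left out, 4 without ADAR1 siRNA Ribo-seq replicate 2 (0 in 6 of 8 fits by edgeR, with 9 to 15 at an unadjusted p under 0.05), and the median of -0.29 over 51 genes ran from -0.73 to -0.14, or was -0.43 over the 32 genes with a ratio. Leaving out a library moved the log2 difference of summed counts to between -0.0876 and 0.0425 for H2A in Ribo-seq, 0.0256 and 0.51 for H2B in RNA, 0.52 and 1.1 for H3 in RNA, and -0.10 and 0.0853 for H3 in Ribo-seq. In Ribo-seq it lay between -0.0233 and 0.119 for H1 and between -0.0341 and 0.0582 for H2B. The sign of the Ribo-seq sums thus turned for every type but H4. All 47 Ribo-seq over Input calls were made in every setting run, except that requiring a mean count of 10 tested 46 of them. Causes of these shifts were not tested.

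Replicate numbers are not said to mark a shared culture. With a replicate block, 4 histone genes were called in RNA (H1-2, H2AC6, H2AC18 and H2AC19), 1 in Ribo-seq (H2BC1, lower) and 3 in translational efficiency (H1-2, H2AC18 and H2AC19). That setting called 1095 of all genes in RNA, 2102 in Ribo-seq and 1169 in translational efficiency. H2AC18 and H2AC19 share their counts. Low Input counts limit the RNA and translational efficiency tests to few genes.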
